A study of Mus musculus with 6 samples.

Results

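The transcription factors Otx2, Pou3f1, Zic2, Zic5, Foxd3, Sox3, Sox4, Sox11 and Sall2, chosen by name because they mark formative and primed pluripotency, are 9 of the 31641 genes in a count table from mouse embryonic stem cells. All 9 were among the 18019 genes with enough counts to be tested. After knockdown of Nat10, the enzyme that places N4-acetylcytidine on RNA, 5 of the 9 fell (Otx2, Foxd3, Pou3f1, Zic2 and Zic5), Sox4 rose, and Sox3, Sox11 and Sall2 did not pass the test.

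The cells were of the E14 line, an established line of mouse embryonic stem cells. The control group (CON, 3 libraries) is labelled Nat10 WT and grown without Dox (doxycycline), and the knockdown group (KD, 3 libraries) is labelled Nat10 KD and grown with Dox. Genotype label and Dox therefore differ together, and their shares in any difference cannot be told apart. The labels do not give the knockdown construct, the number of clones, the culture medium, the length of Dox exposure or whether each replicate was a culture of its own. The p-values therefore measure the spread between these libraries only, and that spread may be technical. Poly-A RNA was sequenced. In bulk RNA, fewer cells that express a gene and less RNA per cell cannot be told apart.

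Mouse pluripotency is described as a path from a naive state, kept by factors such as Nanog, Klf4 and Esrrb, through a formative state in which cells become able to form germ layers, to a primed state like that of the later epiblast. OTX2 and POU3F1 (also called OCT6) are among the first factors to rise on leaving the naive state, and OTX2 takes part in moving OCT4 to the enhancers of the next state. ZIC factors and FOXD3 act at enhancers during the same passage, and several SOX factors then act in the neural lineage, which primed cells readily enter.

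Library totals ran from 33770755 to 39524273 counts. Nat10 itself was counted 4960, 5496 and 4877 times in the CON libraries against 1100, 1164 and 1050 times in the KD libraries, a fall by 5.44-fold (log2 difference -2.44, SE 0.0537, edgeR quasi-likelihood test, Benjamini-Hochberg adjusted p = 4.21e-14). Over all genes tested, 30.8% fell and 32.2% rose, and 67.1% had CPM values (counts scaled to a common library size with TMM factors) that did not overlap between the groups. With scaling by library size alone, every log2 difference was 0.229 higher at the median, and the split was 3535 falls to 8280 rises in place of 5543 to 5801. The library KD-3 stood apart from the other KD libraries: its chi-square per gene was 16.2 against KD-1 and 12.0 against KD-2, while KD-1 and KD-2 gave 3.09 and pairs of CON libraries gave 2.73 to 5.46.

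Against that background, 5 of 9 members fell, 1 of 9 rose, and 6 of 9 had values that did not overlap between the groups. The median log2 difference of the members was -1.01, beside 0.02 over all genes tested. The summed level of the 9 was 275 to 293 CPM in the CON libraries and 114 to 131 CPM in the KD libraries.

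**Figure D1:**
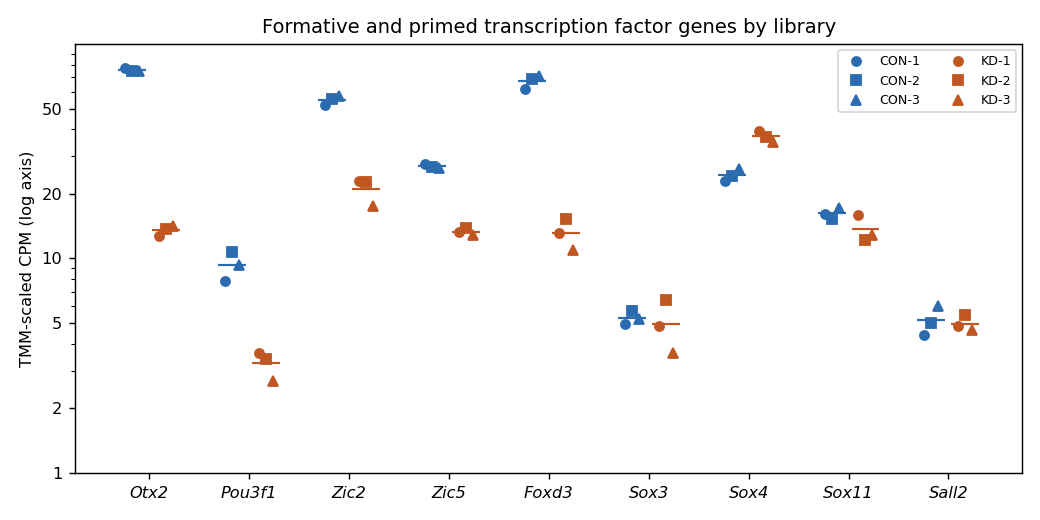
Level of each of the 9 factors in each of the 6 libraries, in CPM on a log axis, with points for libraries and short lines for group means. The KD points lie below the CON points for Otx2, Foxd3, Pou3f1, Zic2 and Zic5 and above them for Sox4, while those of Sox3, Sox11 and Sall2 overlap.

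Otx2, a homeodomain factor of the epiblast and later of the anterior brain, had 77.3, 74.9 and 74.6 CPM in the CON libraries and 12.7, 13.7 and 14.1 CPM in the KD libraries. The lowest CON library was far above the highest KD library, and the spread within each group was small (75.6 ± 1.49 and 13.5 ± 0.726 CPM, SD, n = 3 each). The fall was 5.60-fold (log2 difference -2.49, SE 0.0645, edgeR adjusted p = 1.32e-13), the largest of the 9. It rests on 2427 to 2722 counts in each CON library and 517 to 586 in each KD library. Otx2 lies on the minus strand of chromosome 14 from 48657677 to 48673819 (GRCm38, GENCODE M21), with 6 exons in its longest transcript.

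Foxd3, a forkhead factor required in the epiblast and in neural crest, stood at 61.9, 68.6 and 71.2 CPM in CON and at 13.2, 15.3 and 10.9 CPM in KD. All KD libraries were below all CON libraries, and KD-3 was the lowest. The means were 67.2 ± 4.77 and 13.1 ± 2.19 CPM (SD, n = 3 each), a fall by 5.10-fold (log2 difference -2.35, SE 0.0976, edgeR adjusted p = 1.97e-11). The gene is a single exon on the plus strand of chromosome 4 from 99656299 to 99658622.

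Otx2 and Foxd3 fell most, so the 250 bases before a start of each are printed here, 5′ to 3′ on the gene's strand, from the promoter table of RefSeq (build GRCm38.p6). Capitals mark the motifs described after the other members; in Otx2, where the table has 4 starts, the window shown is the one with a CCAAT match (chr14:48667509-48667758, minus strand), and that of Foxd3 is chr4:99656049-99656298, plus strand.
Otx2: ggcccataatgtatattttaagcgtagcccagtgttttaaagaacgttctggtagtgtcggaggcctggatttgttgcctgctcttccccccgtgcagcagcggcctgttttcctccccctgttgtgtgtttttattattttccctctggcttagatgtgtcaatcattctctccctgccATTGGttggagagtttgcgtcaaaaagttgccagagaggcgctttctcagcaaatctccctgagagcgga
Foxd3: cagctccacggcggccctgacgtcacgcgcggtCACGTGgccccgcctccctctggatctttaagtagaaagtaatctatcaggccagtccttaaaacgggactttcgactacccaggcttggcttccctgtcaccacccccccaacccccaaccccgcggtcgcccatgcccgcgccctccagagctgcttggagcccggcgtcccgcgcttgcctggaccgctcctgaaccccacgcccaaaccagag

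Pou3f1, a POU factor of the epiblast that also acts in neural fate and in myelinating glia, had 7.87, 10.7 and 9.34 CPM in CON and 3.63, 3.41 and 2.68 CPM in KD. The groups did not overlap, although the counts behind them were among the lower ones of the 9 (268 to 388 in CON, 98 to 152 in KD). Its mean went from 9.29 ± 1.40 to 3.24 ± 0.496 CPM (SD, n = 3 each), a fall by 2.86-fold (log2 difference -1.52, SE 0.150, edgeR adjusted p = 3.47e-07). It is a single-exon gene on the plus strand of chromosome 4 from 124656807 to 124660655.

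Zic2 and Zic5 encode zinc-finger factors of the epiblast and the dorsal nervous system, and they lie next to each other on chromosome 14 in opposite directions. Zic2 had 52.2, 55.4 and 57.0 CPM in CON and 22.9, 22.8 and 17.5 CPM in KD, and Zic5 had 27.5, 26.6 and 26.5 CPM in CON and 13.3, 13.9 and 12.9 CPM in KD. Neither overlapped between the groups. Zic2 fell by 2.59-fold (54.8 ± 2.45 to 21.1 ± 3.09 CPM, SD, n = 3 each; log2 difference -1.38, SE 0.0888, edgeR adjusted p = 2.92e-09). Zic5 fell by 2.01-fold (26.9 ± 0.553 to 13.4 ± 0.518 CPM, SD, n = 3 each; log2 difference -1.01, SE 0.0747, edgeR adjusted p = 1.35e-08).

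Within a library, the ratio of Zic5 to Zic2 counts does not depend on scaling. It was 0.527, 0.480 and 0.465 in CON and 0.579, 0.609 and 0.735 in KD, higher in each KD library than in any CON library. The change was 1.30-fold, with an exact two-sided permutation p of 0.1, the smallest that 3 against 3 libraries can give, and 0.117 after Benjamini-Hochberg adjustment over the 7 ratios formed, so it could not reach 0.05. Zic5 runs from 122456795 to 122465677 on the minus strand and Zic2 from 122475435 to 122479852 on the plus strand. Between them lies the gene 2610035F20Rik on the minus strand, whose start is 236 bases from the start of Zic2. It also fell, from 6.63 ± 0.439 to 3.68 ± 0.591 CPM (log2 difference -0.85, SE 0.143, edgeR adjusted p = 9.29e-05). Beyond the pair, Clybl on the Zic5 side changed by -0.28 (log2, fell) and Pcca on the Zic2 side by 0.46 (log2, rose).

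Sox4, a SOXC factor of progenitors and differentiating cells in many tissues, was the member that rose. It had 23.1, 24.4 and 26.1 CPM in CON and 39.3, 37.0 and 34.8 CPM in KD. All KD libraries were above all CON libraries. The means were 24.5 ± 1.54 and 37.1 ± 2.26 CPM (SD, n = 3 each), a rise by 1.51-fold (log2 difference 0.60, SE 0.0726, edgeR adjusted p = 3.29e-06). It is a single-exon gene on the minus strand of chromosome 13 from 28948919 to 28953713.

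Sox11, the other SOXC factor measured among the 9, had 16.2, 15.3 and 17.2 CPM in CON and 16.0, 12.2 and 12.9 CPM in KD. KD-1 lay within the CON values and the other KD libraries below them. The log2 difference was -0.24 (SE 0.105) and missed the threshold (edgeR adjusted p = 0.0539). This is the one member whose call moved with the processing: over 16 alternatives the adjusted p ran from 0.00329 without KD replicate 1 (log2 difference -0.38) to 0.906 with scaling by library size (log2 difference -0.02), and it was below 0.05 in 6 of them. Sox11 is a single-exon gene on the minus strand of chromosome 12 from 27334264 to 27342574.

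Within a library, the ratio of Sox11 to Sox4 counts was 0.701, 0.630 and 0.656 in CON and 0.407, 0.330 and 0.369 in KD, lower in each KD library than in any CON library (1.80-fold, exact two-sided permutation p = 0.1, the smallest possible, adjusted 0.117). Their upstream bases are printed because the pair differed in response within one subfamily, again from RefSeq in GRCm38.p6 and 5′ to 3′ on the minus strand, Sox4 from chr13:28953700-28953949 and Sox11 from chr12:27342719-27342968, with CCAAT matches on either strand in capitals.
Sox4: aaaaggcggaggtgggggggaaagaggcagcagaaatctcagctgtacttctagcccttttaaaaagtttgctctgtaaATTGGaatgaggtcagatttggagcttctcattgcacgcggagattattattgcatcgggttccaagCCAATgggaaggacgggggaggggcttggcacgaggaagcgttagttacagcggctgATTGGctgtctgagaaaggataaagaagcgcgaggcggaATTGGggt
Sox11: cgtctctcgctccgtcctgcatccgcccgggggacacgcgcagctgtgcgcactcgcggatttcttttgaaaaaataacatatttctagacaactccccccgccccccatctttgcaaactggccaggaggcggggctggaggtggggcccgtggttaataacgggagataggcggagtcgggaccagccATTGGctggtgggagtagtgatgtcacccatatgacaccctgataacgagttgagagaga

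RefSeq windows of 300 bases (250 before and 50 after a start) were matched for 6 of the 9 members, 10 windows in all, and searched on both strands for 8 short motifs, with 32851 windows of all genes as the comparison. CCAAT, the letters bound by NF-Y, was found in 4 of the 10 windows, 1 each of Otx2, Sox4, Sox11 and Sall2, and in 37.4% of all windows, a like share. Sox4 held 4 matches, starting 171, 104, 47 and 8 bases before the start, and Sox11 held 1, 60 bases before it. In the Otx2 window shown the match starts 70 bases before the start. Another Otx2 window held GGATTA, the letters bound by OTX2 itself, which 7.06% of all windows hold, and the Foxd3 window held the E-box CACGTG, present in 7.15%. TATAAA was found in 2 of the 10 windows, 1 each of Otx2 and Sall2, and in 13.6% of all windows. None of the 10 windows held the octamer ATGCAAAT (1.74% of all windows), the SOX letters AACAAAG (5.85%) or ACAATG (12.6%), or the ATF4-like TGATGNAA (3.97%). The Foxd3 and Sox11 stretches were rich in CpG, with 21 and 17 in 250 bases against a median of 6, and those of Otx2 and Sox4 held 8 and 11. A match says only that the letters are there.

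Sox3, a SOXB1 factor closely related to Sox2 and typical of neural ectoderm, had 4.93, 5.67 and 5.23 CPM in CON and 4.82, 6.40 and 3.61 CPM in KD. Sall2, a spalt-like zinc-finger factor, had 4.40, 5.01 and 6.02 CPM in CON and 4.82, 5.44 and 4.65 CPM in KD. In both genes the groups overlapped. For Sox3 the highest and the lowest of the 6 values were both KD libraries. The log2 difference of Sox3 was -0.09 (SE 0.176, edgeR adjusted p = 0.685) and that of Sall2 -0.05 (SE 0.144, edgeR adjusted p = 0.798). With scaling by library size both signs turned, to 0.14 and 0.18, without passing the test. Sox3 is a single-exon gene on chromosome X from 60891366 to 60893430 and Sall2 has 2 exons on chromosome 14 from 52311172 to 52328762, both on the minus strand. Each had 132 to 274 counts in a library. The KD libraries of Sox3 spread more than its CON libraries (SD 1.40 and 0.370 CPM), with KD-3 lowest.

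**Figure D2:**
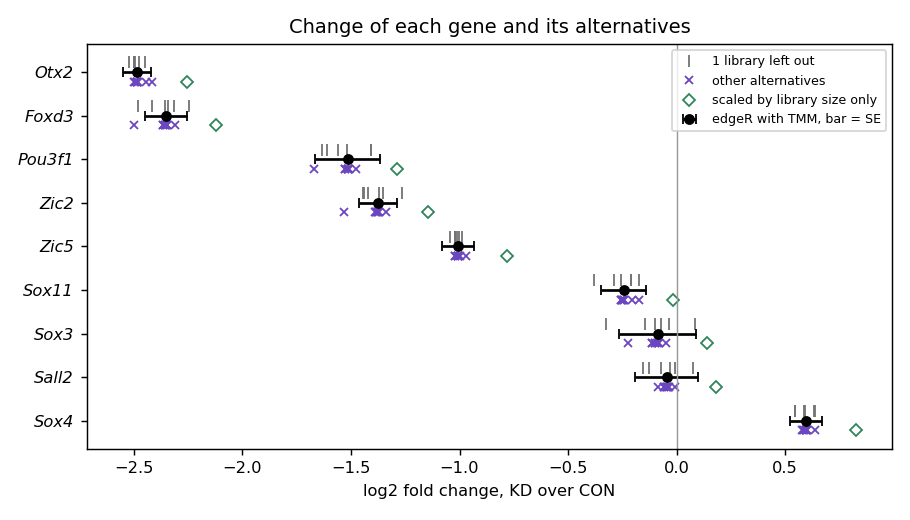
Log2 difference of KD against CON for each of the 9 factors as black points with the standard error as a bar, beside the fits with 1 library left out (ticks), with scaling by library size (diamonds) and with other alternatives (crosses). Otx2 and Foxd3 lie near -2.49 and -2.35 and Sox4 at 0.60, and those of Sox3 and Sall2 lie on either side of 0 depending on the setting.

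The table the authors deposited with the counts gives the same directions. In the authors' deposited table, log2 values are CON over KD, so a fall in KD is positive: Otx2 stands at 2.496 and Foxd3 at 2.37. The authors' deposited table has Pou3f1 at 1.53, Zic2 at 1.39, Zic5 at 1.02 and Sox4 at -0.59, each with an adjusted p under 0.05 there. In the authors' deposited table Sox11 has 0.26 with an adjusted p of 0.105, and Sox3 and Sall2 have adjusted p-values of 0.856 and 0.893.

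Levels of different genes were compared by the authors' FPKM (depth-scaled fragments per kilobase), which divides by gene length and by the library total without TMM. In CON, Foxd3 was highest (26.7 ± 1.83 FPKM, SD, n = 3), followed by Zic2 (17.6 ± 0.744) and Otx2 (16.5 ± 0.369), whose libraries overlapped. Zic5 (5.07 ± 0.118) and Sox4 (4.72 ± 0.286) came next and also overlapped. Sox3, Pou3f1 and Sox11 stood at 2.36 ± 0.161, 2.23 ± 0.332 and 1.80 ± 0.0999 FPKM, with overlap between neighbours, and Sall2 was lowest at 0.874 ± 0.138. The CON order thus had 4 steps without overlap, below Foxd3, below Otx2, below Sox4 and below Sox11.

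In KD the order changed. Sox4 (8.36 ± 0.491 FPKM), Zic2 (7.92 ± 1.15) and Foxd3 (6.11 ± 1.02) formed the top, each overlapping its neighbour, followed by Otx2 (3.46 ± 0.194). Zic5 (2.95 ± 0.115), Sox3 (2.59 ± 0.735) and Sox11 (1.78 ± 0.261) overlapped in turn, and Sall2 (0.989 ± 0.0842) and Pou3f1 (0.910 ± 0.138) were lowest. Among all genes tested, Foxd3 was above 88.8% in CON and 58.1% in KD by FPKM, Otx2 above 81.4% and 47.2%, and Sox4 above 56.5% and 65.0%.

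**Figure D3:**
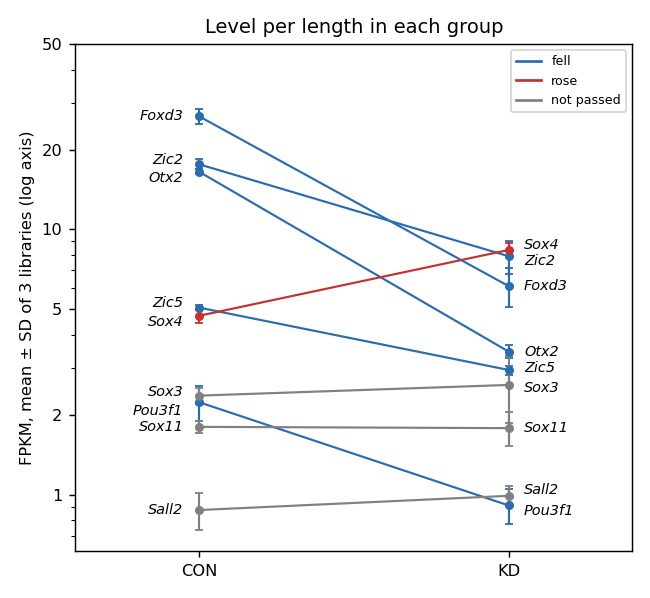
Mean of the authors' FPKM on a log axis for the 9 factors in CON and KD, with bars for the SD of 3 libraries and a line joining the means of each gene, coloured by its edgeR call. Foxd3, Zic2 and Otx2 lead in CON at 16.5 to 26.7 FPKM, and Sox4 leads in KD at 8.36 FPKM.

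KD-3 differed from KD-1 and KD-2 with the GC content of genes, and this touched the members unequally. Over all genes tested, KD-3 minus the mean of KD-1 and KD-2 (log2 CPM) had a median of 0.163 in the 10% of genes lowest in GC and -0.226 in the 10% highest. Pou3f1, Zic2, Foxd3 and Sox3 are in the highest 10%, with 59.9% to 66.4% GC, and their values were -0.34, -0.38, -0.37 and -0.56. The other 5 members lay between -0.13 and 0.10. In those GC-rich genes, the median log2 difference of KD against CON was 0.187, and 24.2% of its genes fell and 42.1% rose.

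Without KD-3, the log2 difference was -2.52 for Otx2, -2.25 for Foxd3, -1.41 for Pou3f1, -1.27 for Zic2, -0.99 for Zic5 and 0.63 for Sox4, and these 6 passed the edgeR test again. Sox3 then had 0.08, Sox11 -0.21 and Sall2 -0.01, none past the test. With the GC trend of each library removed, an alternative chosen after seeing the data, Foxd3 had -2.50, Otx2 -2.42, Pou3f1 -1.67, Zic2 -1.53, Zic5 -0.998 and Sox4 0.58, all past the test, and Sox3 had -0.22 (edgeR adjusted p = 0.157).

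**Figure D4:**
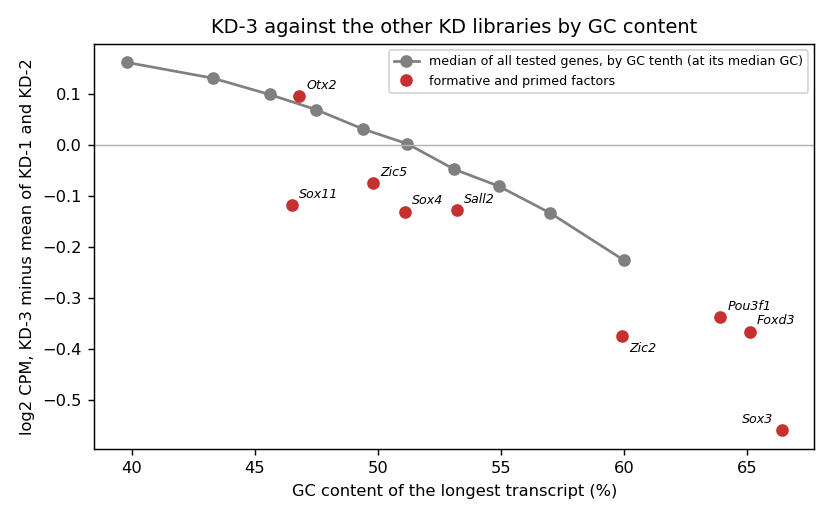
Difference of KD-3 from the mean of KD-1 and KD-2 in log2 CPM against GC content in percent, with the medians of 10 equal bins of all genes tested as a line and the 9 factors as named points. The line runs from 0.163 to -0.226, and Pou3f1, Zic2, Foxd3 and Sox3 lie at its GC-rich end.

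Pou3f1, Foxd3, Sox3, Sox4 and Sox11, 5 of the 9 members, have a single exon, as do 3.12% of the 15111 protein-coding genes tested. The 471 single-exon genes had a median log2 difference of 0.17, with 35.0% risen and 22.3% fallen, beside 36.2% and 32.7% of all protein-coding genes. Among the 5 members, Foxd3 and Pou3f1 fell and Sox4 rose.

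Some members share exonic bases with other genes, and the sources used here do not give the strand setting of the counting. The opposite-strand gene Gm26735 covers 2616 of the 4795 exonic bases of Sox4 (54.6%) and is not among the genes counted. How reads that lie in both genes were treated is not known, so Sox4 counts could include or lack such reads. Otx2 shares 154 bases with the opposite-strand Otx2os1, which had 8 to 16 counts per library, and Pou3f1 shares 330 bases with Gm2164, which had 0 to 5. On the same strand, where a strand-aware count could not separate them either, Otx2 shares 168 bases with Gm49154, which had 0 to 2 counts per library. Foxd3 shares 89 bases on its strand with the miRNA gene Gm23366, which is also not among the genes counted.

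The wider families gave paralogs of the members as a comparison. Of 17 SOX genes tested, members included, 7 fell and 4 rose, while 6 did not pass, and their median log2 difference was -0.24. Without the members, 7 of 14 fell and 3 rose, while 4 did not pass, with a median of -0.48. Sox2, the SOXB1 factor of the core pluripotency network, fell from 507 ± 10.7 to 169 ± 16.2 CPM (log2 difference -1.59, edgeR adjusted p = 5.77e-12), and Sox1 fell from 1.71 to 0.616 CPM. Sox7, a factor of endoderm and vessels, had the lowest log2 difference of the family (-3.73). The ratio of Sox3 to Sox2 counts was 0.00997, 0.0111 and 0.0102 in CON and 0.0268, 0.0362 and 0.0240 in KD. It was higher in each KD library than in any CON library, by 2.75-fold (exact two-sided permutation p = 0.1, the smallest possible, adjusted 0.117). Sox12, the third SOXC gene, fell from 95.7 ± 4.85 to 67.8 ± 10.3 CPM (log2 difference -0.50, edgeR adjusted p = 9.46e-05), and Sox6 rose from 2.85 to 6.43 CPM.

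Of 9 POU genes tested, Pou3f1 included, 6 fell and 2 rose, while 1 did not pass. Without Pou3f1, 5 of 8 fell and 2 rose. Pou5f1, which encodes the core factor OCT4, fell from 732 ± 21.5 to 229 ± 21.3 CPM (log2 difference -1.67). The count ratio of Pou3f1 to Pou5f1 overlapped between the groups (1.11-fold, exact two-sided permutation p = 0.3, adjusted 0.3). The ratio of Otx2 to Pou5f1 was 0.109, 0.101 and 0.0996 in CON and 0.0518, 0.0576 and 0.0689 in KD, lower in each KD library than in any CON library, by 1.75-fold (exact two-sided permutation p = 0.1, adjusted 0.117). Pou4f1, a factor of sensory neurons, rose from 6.12 ± 0.589 to 19.8 ± 1.01 CPM (log2 difference 1.69, edgeR adjusted p = 1e-09), and Pou3f3 rose from 1.22 to 2.75 CPM. Pou4f2, of the same class as Pou4f1, fell by 10.1-fold, from 86, 110 and 98 counts in the CON libraries to 18, 8 and 8 in the KD libraries (log2 difference -3.33, edgeR adjusted p = 1.18e-07).

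Beside Zic2 and Zic5, which fell, the paralog Zic1 rose. Zic1, a factor of the dorsal nervous system, was counted 18, 21 and 20 times in the CON libraries against 56, 61 and 50 times in the KD libraries (log2 difference 1.26, edgeR adjusted p = 9.35e-04).

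Otx1, the paralog of Otx2, rose by 1.81-fold, from 1.10 to 1.99 CPM (edgeR adjusted p = 0.0127), a call that was lost without CON replicate 3 and without KD replicate 1. Of the FOXD paralogs tested, Foxd2 rose from 0.407 to 1.07 CPM (log2 difference 1.39, edgeR adjusted p = 0.00742) and Foxd1 did not pass, although it did without KD replicate 3. Of 4 SALL genes, Sall1, Sall3 and Sall4 fell, with log2 differences of -1.24, -1.30 and -1.26, and Sall2 did not pass. The ratio of Sall2 to Sall4 counts was 0.0112, 0.0127 and 0.0153 in CON and 0.0281, 0.0317 and 0.0308 in KD, 2.33-fold higher and without overlap (exact two-sided permutation p = 0.1, adjusted 0.117). The plot of families shows the members beside their paralogs.

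**Figure D5:**
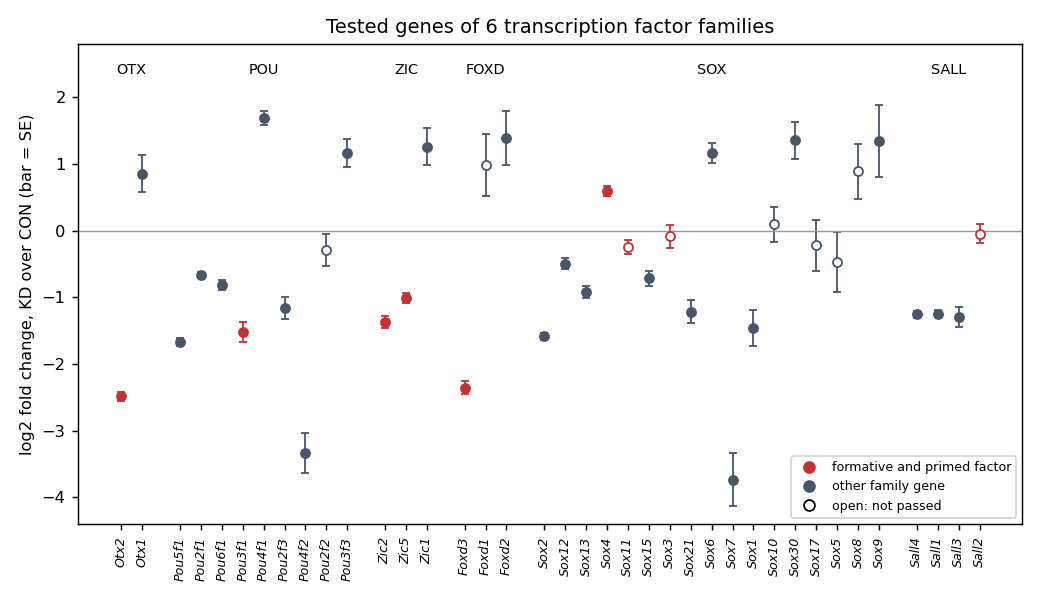
Log2 difference of KD against CON for tested genes of the SOX, POU, ZIC, OTX, FOXD and SALL families, with bars for the standard error, the 9 factors in red and genes that did not pass as open points. Sox2, Pou5f1 and Sall4 lie below 0, at -1.59, -1.67 and -1.26, and Pou4f1 and Zic1 lie above it, at 1.69 and 1.26.

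Of 21 other formative and primed genes, 20 were tested. Of these, 14 fell and 4 rose, while 2 did not pass; the median log2 difference was -0.68. The falls with the smallest p-values were Etv5 (515 to 229 CPM, log2 difference -1.17), Dnmt3b, a DNA methyltransferase (300.5 to 141 CPM, -1.09), Etv4 (-1.33) and Lefty2 (-1.02). The rises were Cdh2, which encodes N-cadherin (4.88 to 16.8 CPM, log2 difference 1.78, edgeR adjusted p = 7.89e-10), Lefty1 (21.8 to 39.5 CPM, 0.86), Wnt8a (1.39) and Cldn6 (0.28). Fgf5, the usual marker of the primed epiblast, had 2 to 8 counts in every library and was not tested.

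Of 22 genes that act in the exit from naive pluripotency, 16 fell and 2 rose, while 4 did not pass; the median log2 difference was -0.50. With scaling by library size, 12 fell and 6 rose. The falls with the smallest p-values were Fgf4, the ligand that drives ERK signalling in these cells (207 to 58.4 CPM, log2 difference -1.82, edgeR adjusted p = 3.66e-13), Rbpj (675 to 218 CPM, -1.63), Etv5 and Jarid2 (715 to 323 CPM, -1.15). Lztr1 and Fgfr1 rose, by log2 differences of 0.80 and 0.77. Etv5 and Tcf7l1 stand in both lists.

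Markers of other cell types were read beside the members. All 12 embryonic stem cell markers fell, and their summed level went from 7580 to 7630 CPM over the CON libraries to 2680 to 2780 CPM over the KD libraries. The smallest of these falls, that of Dppa4 (log2 difference -0.19, edgeR adjusted p = 0.00739), was less than the median shift of 0.229 between the 2 scalings. Of 6 neural progenitor markers tested of 11 listed, 3 rose (Nes, Lhx2 and Pax3) and 3 fell (Sox1, Msi1 and Pax6), with sums of 67.1 to 76.8 CPM in CON and 85.7 to 95.3 CPM in KD. Fabp7 was counted 0 times in each CON library and 8, 2 and 2 times in the KD libraries, too few to be tested. Of 10 neuron markers tested of 11, 4 rose and 3 fell, with sums of 156 to 158 CPM and 63.6 to 72.0 CPM. Tubb3 and Stmn2 fell (log2 differences -2.72 and -2.12), and Snap25 and Map2 rose (2.99 and 1.47).

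Of 7 neural crest markers tested of 8, 2 rose and 3 fell, with sums of 45.9 to 47.5 CPM in CON and 21 to 28.5 CPM in KD. The rises were Snai2 (log2 difference 1.14) and Sox9 (1.34), and the falls were Ngfr (-1.76), Tfap2a (-0.68) and Pax7 (-1.23). Few counts lay behind Snai2 (14 to 28 per CON library, 30 to 64 per KD library), and its CPM overlapped between the groups. Sox9 had 2 to 6 and 12 to 16 counts (edgeR adjusted p = 0.0424), and Pax7 had 25 to 33 and 8 to 19. Primitive endoderm markers had 2 rises and 2 falls among 8 (46.8 to 52.1 and 45.4 to 46.9 CPM), trophectoderm markers 3 and 5 among 8 (335 to 350 and 256 to 274 CPM), and streak and mesoderm markers 1 and 2 among 5 tested of 8 (4.78 to 5.81 and 4.73 to 6.17 CPM). Of 3 fibroblast markers tested of 8, Col1a2 rose from 1.53 to 16.6 CPM and Col1a1 by 0.82 (log2) while Thy1 fell. Their summed level went from 13.4 to 16.6 CPM in CON to 24.8 to 28.5 CPM in KD, while Col3a1, Postn and S100a4 were at or near 0. The part of any of these cell types in the members' changes was not tested.

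The nearest tested genes on either side moved in both directions. Beside Otx2, Tmem260 rose (log2 difference 0.70). Beside Pou3f1, Utp11 fell (-0.62). Beside Foxd3, Gm12688 and Alg6 did not pass, at 0.09 and -0.03, and beside Sox4, Cdkal1 fell (-0.53). Rps7, 1288280 bases from Sox11, fell (-0.41), Ldoc1 beside Sox3 rose (1.59), and Mettl3, 6044 bases from Sall2, did not pass (-0.09). Low-count neighbours were Gm48909 by Otx2 (-0.92), 2610307P16Rik by Sox4 (-1.50), Gm14661 by Sox3, Cmpk2 by Sox11 and Rps19-ps2 by Sall2, and of these the first and second fell, the first with a call lost in 11 of 15 alternatives and the second with one lost without CON replicate 1. Rragc beside Pou3f1 rose by 0.15 (edgeR adjusted p = 0.0408), a call lost in 10 of 16 alternatives.

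Among 11045 named genes, the one whose centred log2 CPM profile over the 6 libraries lay closest to each member was found by Euclidean distance, as a description that mostly follows the difference between the groups. For Otx2 it was Nat10 itself (distance 0.0907, log2 difference -2.44 beside -2.49). For Zic5 it was Mtss1 (0.0462), for Sox4 Stard8 (0.0724), for Zic2 Marcksl1 (0.0817) and for Sox11 Fahd1 (0.137). The distances were larger for Sall2 with Gpank1 (0.150), Pou3f1 with Rnf165 (0.190), Foxd3 with Mymx (0.206) and Sox3 with Ccl27a (0.220).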

How the data were processed

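Poly-A RNA from 3 CON and 3 KD libraries of E14 cells was sequenced. The submitters' processing notes name FastQC 0.11.9, STAR 2.5.3a, featureCounts and the mm10 build. Annotation, strand and multi-mapping settings were not given in the sources used here. Per gene and library, the authors deposited raw counts and FPKM, and their own table of log2 ratios (CON over KD) with p-values from a test that the labels do not name. Symbols that a spreadsheet had turned into dates (26) were restored by gene ID. Between 70.0% and 71.7% of counts from 1 to 20 were even, so mates of a pair may have been counted separately.

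Counts were filtered with filterByExpr, scaled by TMM and tested by edgeR 4.0.16 (quasi-likelihood, robust) in R 4.3.3. Benjamini-Hochberg adjustment was over 18019 genes, with a threshold of 0.05. The fit was tested on simulated data in which few genes changed, in balanced directions, and no library stood apart. That simulation did not test the fit under changes as wide as those seen here. Likeness used genes of at least 5 CPM on average and log2(CPM + 0.5). Ratios used exact permutation tests over libraries. FPKM values were described without a test. Alternatives changed the scaling, filter and tool (DESeq2 1.42.0, limma 3.58.1), halved the counts, or left out a library. Coordinates are from GENCODE M21, which held 99.72% of the gene IDs. Printed were all 9 members, paralogs in their families, up to 4 genes per direction of each other list by smallest p, the nearest tested genes, and the most alike gene; other marker genes named were chosen after their values were seen. One gene and the results that used it are not reported here. The members and lists were chosen with earlier results of these data known.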

Additional observations from a re-analysis of the deposited data

How the results depend on the processing

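The members gave 5 to 6 falls and 1 rise under all 16 alternatives, and the 6 calls kept their direction and passed in each; the sixth fall was Sox11. Scaling by library size gave 3535 falls over all genes, 6 rises among the exit genes and 2 among FOXD genes. Without the count filter, 2 ZIC and 2 FOXD genes rose, and with a filter of 1 CPM in 3 libraries 0 FOXD genes did. Leaving out single libraries gave 0 to 1 OTX rises and 1 to 2 FOXD rises. With a search of the forward strand only, CCAAT was found for 2 members instead of 4.

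The labels do not say whether the replicate numbers pair the samples. Deviations of CON and KD libraries with the same number correlated at -0.115, 0.039 and -0.064, and those with different numbers at -0.094 to 0.154. Such values cannot show whether same-numbered libraries were handled together. With a replicate block, 6 members fell and 1 rose, Sox11 having a log2 difference of -0.25 (edgeR adjusted p = 0.0463), and over all genes 5347 fell and 5559 rose. Paired by number, an exact sign-flip permutation test of the ratios gave p = 0.25, its smallest value, for 6 ratios and 0.5 for Pou3f1 to Pou5f1. Calls of the neighbours Gm48909 and Clybl (adjusted p = 0.574 with scaling by library size) were also lost in some settings; the cause was not tested. CPM per kilobase, planned as another measure per length, was not run, although exonic lengths were at hand from GENCODE M21. With 98 to 388 counts per library, Pou3f1, Sox3 and Sall2 are the least precise members.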

Other observations

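Lowly counted paralogs outside the tests showed counts mainly in the KD libraries. Pou3f4, a neural POU factor close to Pou3f1, was counted 0 times in each CON library and 4, 9 and 10 times in the KD libraries. Zic4, a paralog of Zic2 and Zic5, was counted 0, 2 and 2 times in the CON libraries against 15, 4 and 8 times in the KD libraries. Both were below the count filter, so no test was made.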
